A study of Mus musculus with 6 samples.

Results

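The genes of glycolysis, glycogen storage and the pentose phosphate pathway were examined in infarcted mouse left ventricles profiled by bulk RNAseq. The set held 35 genes, chosen by symbol as transporters and enzymes of these pathways, out of 17556 genes in the expression table. All 35 were found in the table, and all 35 passed edgeR's filter on low counts, which left 13817 genes for testing. By their textbook tissue distribution, 9 were taken as muscle or heart forms, 11 as non-muscle forms and 15 as forms shared by most tissues, the last including 4 pentose phosphate genes. The files give a level per gene, so splice forms of a gene, such as those of *Pkm*, were not told apart.

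The 6 ventricles came from mice 6 to 10 weeks old, collected 4 days post injury (dpi) after permanent ligation of the left anterior descending artery, an operation that causes a myocardial infarction (MI). The 3 Cre_pos ventricles were Yap fl/fl;Wwtr1 fl/+;PostnMCM, with MerCreMer, a tamoxifen-dependent Cre, placed at the endogenous Periostin locus. The 3 Cre_neg ventricles were from siblings with the same floxed alleles (both of Yap, 1 of Wwtr1) and wildtype Periostin. Both groups had the ligation and were fed tamoxifen citrate diet from the time of surgery. The Cre is driven by the Periostin promoter, so recombination is expected in myofibroblasts alone, while RNA came from the whole homogenized ventricle. The Cre allele and the intended deletion of Yap and Wwtr1 always went together and cannot be told apart in this design. RNA was extracted with TRIzol and libraries were prepared by BGI Americas. The labels number the ventricles 1 to 3 within each group and do not state that each came from a separate mouse, so p-values measure the spread between these samples.

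Glycolysis splits glucose into pyruvate, which is either reduced to lactate or enters the mitochondria through pyruvate dehydrogenase. Adult cardiomyocytes burn mainly fatty acids and take up glucose through the insulin-responsive transporter GLUT4, while activated fibroblasts and macrophages rely more on glycolysis and export lactate. Many steps are run by isozymes from separate genes, some of them enriched in striated muscle and others found in most cells, so that the mix of isozymes in a tissue reflects both its cell types and their state. The pentose phosphate pathway branches from glucose 6-phosphate and yields NADPH and ribose phosphate.

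The estimated counts summed to between 13177888 and 14827579 per ventricle. *Yap1* had 1547, 1473 and 1419 normalized counts in Cre_neg and 1615, 1436 and 1474 in Cre_pos ventricles 1 to 3, and *Wwtr1* had 1616, 1463 and 1604 against 1614, 1559 and 1661, so both groups overlapped for both targeted genes (log2 fold changes of 0.03 and 0.05, adjusted p = 0.935 and 0.876, edgeR). On the TPM scale neither overlapped, with *Yap1* at 44.2 to 46.3 TPM in Cre_neg and 48.9 to 50.7 TPM in Cre_pos, and *Wwtr1* at 39.3 to 43.6 TPM and 43.9 to 47.4 TPM. With limma on log2(TPM + 1), 73.1% of all genes tested had log2 fold changes above 0, with a median of 0.11. The share of all genes without overlap on the TPM scale was not computed. No loss of *Yap1* or *Wwtr1* RNA was seen in the whole Cre_pos ventricles. *Postn* had 12157, 24639 and 26862 normalized counts in Cre_neg and 12682, 14240 and 13486 in Cre_pos ventricles (log2 fold change of -0.66, unadjusted p = 0.0438, adjusted p = 0.714, edgeR). Cre_neg ventricle 1 was its lowest, and without that ventricle the *Postn* value was -0.94 (adjusted p = 0.0182, edgeR), and -0.90 without both ventricles numbered 1 (adjusted p = 0.0617). Cre_neg ventricle 1 stood apart from the other 5. The mean chi-square per gene between its counts and theirs, which would be about 1 under sampling noise alone, was 44.46 to 68.86, against 8.13 to 17.2 between the others, and it was the highest ventricle for 30.8% and the lowest for 32.1% of all genes tested. In that ventricle the summed level of 10 cardiomyocyte markers was 78337 TPM, against 57967 to 66339 TPM in the others, and the summed level of 7 macrophage markers was 2386 TPM, against 3242 to 3902 TPM. Neutrophil markers summed to 429 TPM there and 54.5 to 165 TPM elsewhere, and smooth muscle markers to 377 TPM and 767 to 985 TPM. The largest parts of that neutrophil sum were *S100a9* (203 TPM) and *S100a8* (152 TPM). *Cxcr2*, *Retnlg*, *Ly6g* and *Mmp9* were also highest there, but *Csf3r* was lowest (12.3 TPM, against 17.4 to 25.9 TPM elsewhere). Cre_pos ventricle 1 held skeletal muscle transcripts (*Myh1* at 16.1 TPM, at most 0.11 TPM elsewhere, and *Tnnt3* at 82.3 TPM, 11.1 to 16.0 TPM elsewhere). The atrial light chain *Myl7* ranged from 18.1 to 611 TPM over the ventricles.

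None of the 35 genes differed between genotypes after adjustment over all genes (edgeR quasi-likelihood test with Benjamini-Hochberg adjustment, 0 of 35 called), and 0.00724% of all genes tested (1 of 13817) were called. DESeq2 and limma also called 0 of the 35. At an unadjusted p under 0.05, 1 of the 35 passed (*Slc16a3*), beside 5.83% of all genes tested. This count was 5 without Cre_neg ventricle 3 (*Pdk1*, *Hk1*, *Slc16a3*, *Ldhb* and *Pfkm*), when 1346 of 14002 genes passed in all. It was 2 without Cre_neg ventricle 1 or 2, when 922 of 13995 and 902 of 13971 passed, and 4 without both ventricles numbered 1, when 1035 of 13894 passed. The smallest adjusted p among the 35 was 0.714. The estimates were spread unevenly across the classes: 12 of the 35 log2 fold changes were above 0 and 23 below, with a median of -0.20, while 51.2% of all genes tested were above 0, with a median of 0.0062. Among the muscle forms 1 of 9 was above 0 (median -0.29, range -0.39 to 0.01), among the non-muscle forms 8 of 11 (median 0.06, range -0.30 to 0.70), and among the shared forms 3 of 15 (median -0.21, range -0.35 to 0.15).

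**Figure D1:**
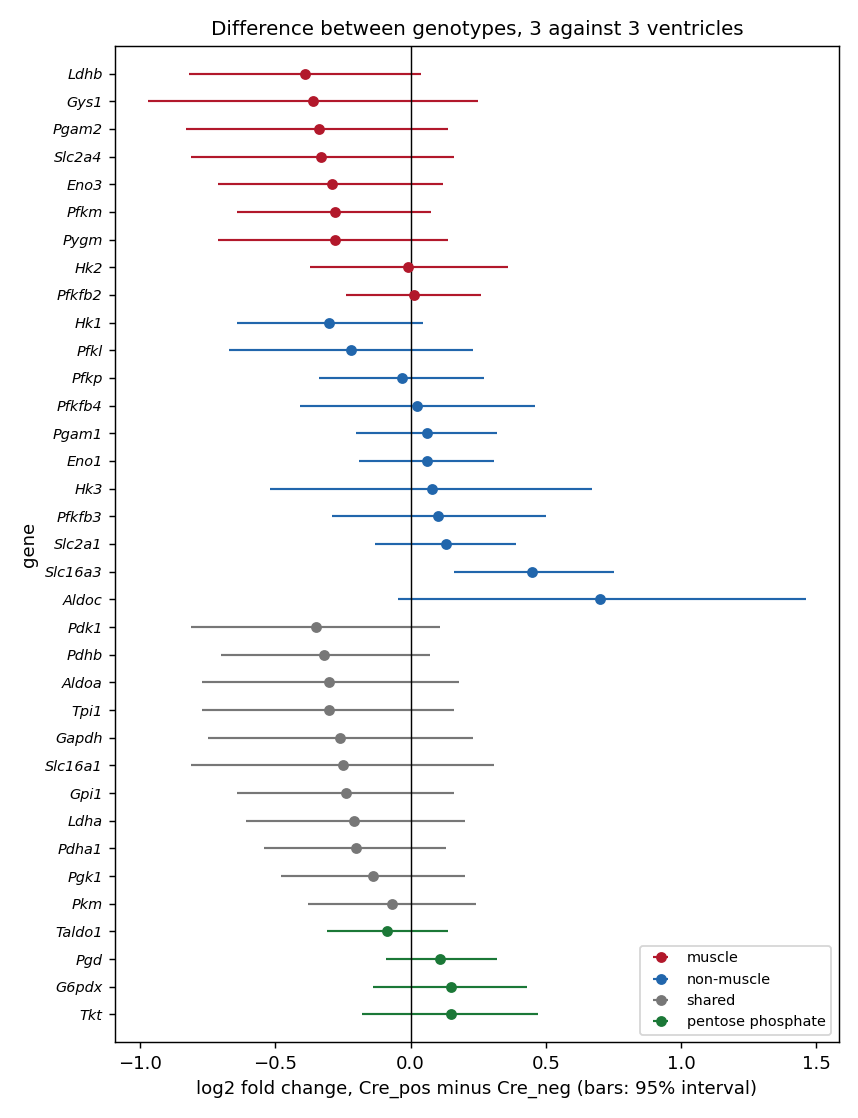
Log2 fold change of each of the 35 genes, Cre_pos minus Cre_neg (x axis), with its 95% interval from the edgeR fit of 3 against 3 ventricles, coloured by class, with the 4 pentose phosphate genes drawn apart from the other shared forms. The interval of *Slc16a3* (0.16 to 0.75) lies above 0, the other 34 intervals include 0, and the muscle forms lie mostly to the left of the non-muscle forms.

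The class medians leaned on Cre_neg ventricle 1. It was the highest ventricle for 8 of 9 muscle forms, for 11 of 15 shared forms and for 3 of 11 non-muscle forms, and the lowest for 3 of 4 pentose phosphate genes. Without it, the median log2 fold change was -0.09 for the muscle forms (3 above 0 and 6 below), 0.06 for the non-muscle forms (7 and 4), -0.03 for the shared forms (5 and 10) and 0.0072 for the pentose phosphate genes (2 and 2). For all 35 genes together the median without it was -0.03 (15 above 0 and 20 below). The non-muscle median leaned on the Cre_pos ventricles instead, and was 0.00059 without Cre_pos ventricle 2 (6 above 0 and 5 below) and 0.15 without Cre_pos ventricle 3 (9 and 2). With both ventricles numbered 1 left out, a choice made after seeing the data, these medians were -0.16, 0.04, -0.05 and -0.0032. The 10 cardiomyocyte markers had log2 fold changes below 0 too, with a median of -0.32, and without Cre_neg ventricle 1 the median was -0.15. For 6 of those 10 markers (*Tnnt2*, *Tnni3*, *Myl2*, *Myl3*, *Pln* and *Mb*) every Cre_pos ventricle lay below every Cre_neg ventricle, beside 6.85% of all genes tested. The summed level of all 10 markers was 65455 to 78337 TPM in Cre_neg and 57967 to 64389 TPM in Cre_pos ventricles, and none was at 0. In RNA from whole tissue, fewer cells of a type and less RNA per cell cannot be told apart, and the part of the cardiomyocyte markers in the muscle forms' values was not tested.

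**Figure D2:**
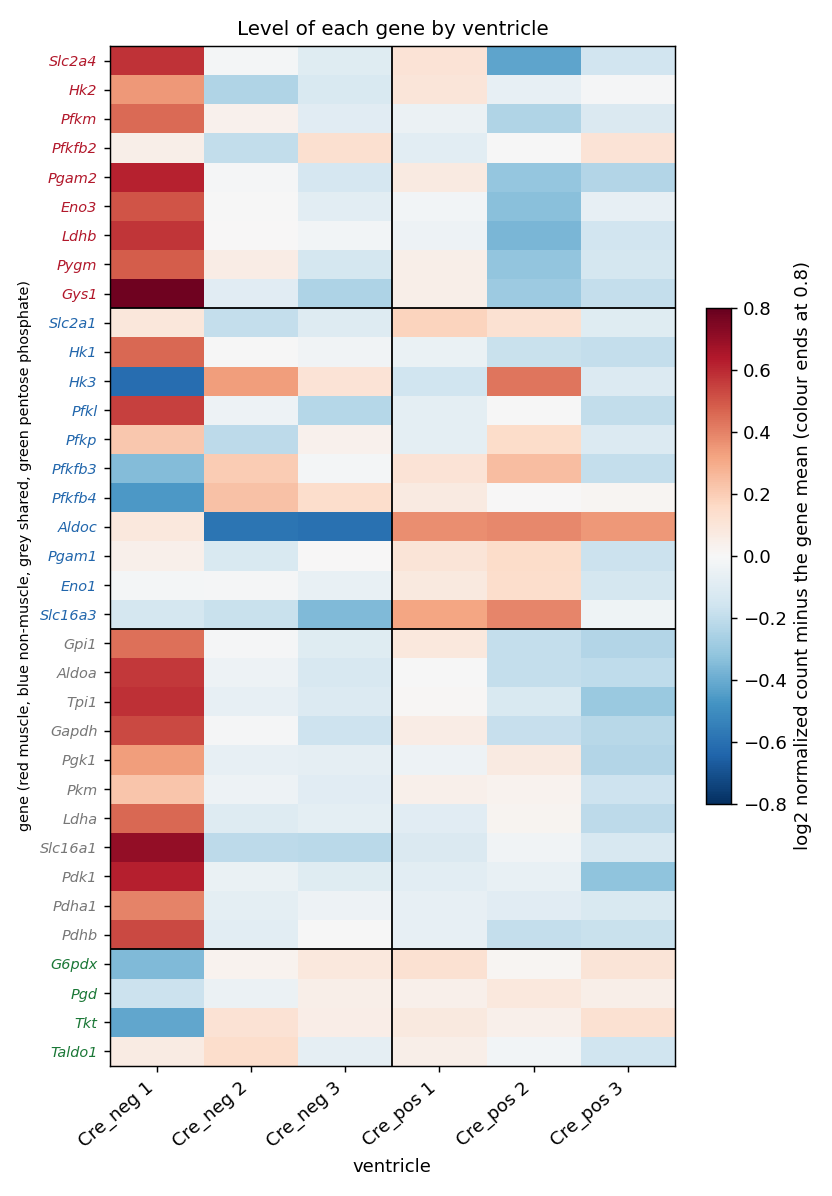
Normalized count of each of the 35 genes in each ventricle, as log2 difference from that gene's mean over the 6 ventricles (colour, ending at 0.8), with genes in rows grouped by class and ventricles in columns. The left column, Cre_neg ventricle 1, is the highest for 22 of the 35 genes, mostly muscle and shared forms, and the pattern of the other 5 columns is weaker.

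On the TPM scale, which divides by gene length and so allows levels of different genes to be compared, the 35 genes together summed to 33696, 26397 and 24791 TPM in Cre_neg and 27463, 26102 and 24678 TPM in Cre_pos ventricles, and the groups overlapped. The order of mean levels was led by *Gapdh*, the dehydrogenase of the middle of glycolysis, at 10395 TPM, followed by *Aldoa* (aldolase) at 4481 TPM. Next came *Ldhb* at 1288, *Pkm* at 1241 and *Ldha* at 1214 TPM, which did not differ beyond their spread over the ventricles, and then *Eno3* at 1006, *Tpi1* at 928 and *Pgam2* at 917 TPM. *Gpi1* (764 TPM), *Pygm* (695), *Eno1* (674) and *Pgk1* (523) followed. The pyruvate dehydrogenase subunits *Pdha1* and *Pdhb* stood at 443 and 439 TPM, and *Pfkm* at 390 TPM. At the low end were *Pfkfb3* at 11.5, *Pfkfb4* at 8.26 and *Aldoc* at 0.907 TPM. The leading genes were thus the shared forms and the muscle or heart forms, as measured in a tissue whose cardiomyocyte markers were high in every ventricle (*Myh6* at 3470 to 4982 TPM).

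*Slc16a3*, the gene of the lactate exporter MCT4, was the member with the smallest p. It lies at chr11:120948484-120959000 (GRCm38.p6). It had 733, 714 and 633 normalized counts in Cre_neg and 1003, 1058 and 788 in Cre_pos ventricles, so that every Cre_pos ventricle was above every Cre_neg ventricle. The log2 fold change was 0.45 ± 0.13 (SE, 95% interval 0.16 to 0.75, unadjusted p = 0.00786, adjusted p = 0.714, edgeR), which did not pass the adjustment over all genes. Leaving out 1 ventricle at a time gave values of 0.37 to 0.57, and 0.45 without both ventricles numbered 1. Its partner *Slc16a1*, which encodes the widely expressed lactate transporter MCT1, had 3993, 2121 and 2114 normalized counts in Cre_neg and 2262, 2410 and 2243 in Cre_pos ventricles. Cre_neg ventricle 1 alone was high, and the log2 fold change of -0.25 ± 0.24 (SE, edgeR) became 0.12 without that ventricle.

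*Slc16a3* was 1 of 2 members, with *Aldoc*, for which every Cre_pos ventricle lay above every Cre_neg ventricle, which is 5.71% of the 35 genes beside 7.55% of all genes tested. Every Cre_pos ventricle lay below every Cre_neg ventricle for 2 members as well (*Hk1* and *Ldhb*), beside the 6.85% of all genes given above. Neither share was above that of all genes. *Aldoc*, at chr11:78323073-78327781, encodes the aldolase found mainly in brain. It had 18.8, 11.8 and 11.7 normalized counts against 22.9, 23.1 and 22.5, with a log2 fold change of 0.70 ± 0.32 (SE, 95% interval -0.05 to 1.46, unadjusted p = 0.0626, adjusted p = 0.714, edgeR). These are counts of a gene close to the filter, at 0.57 to 1.21 TPM, where few reads set the value.

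The start-site window of *Slc16a3* is shown because it is the member with the smallest p, and because it holds the core of the site bound by hypoxia-inducible factors at which several glycolysis genes are known to be induced. The sequence is that of RefSeq on GRCm38.p6, plus strand, chr11:120948817-120949116, from 250 bases before to 50 after an annotated start, with ACGTG on either strand in capitals.

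Slc16a3: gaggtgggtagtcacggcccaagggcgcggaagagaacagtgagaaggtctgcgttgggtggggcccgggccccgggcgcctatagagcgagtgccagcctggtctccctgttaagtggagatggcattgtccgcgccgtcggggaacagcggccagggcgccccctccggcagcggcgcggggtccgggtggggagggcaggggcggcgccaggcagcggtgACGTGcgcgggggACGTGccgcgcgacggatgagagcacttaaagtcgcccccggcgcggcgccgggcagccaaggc

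ACGTG starts at positions -27 and -14 from the start site, counted without a position 0. RefSeq start windows of 300 bases were found for 34 of the 35 genes (50 windows, *Slc2a4* had none). ACGTG, which is also read inside the longer CACGTG, was found on either strand in 23 of these 50 windows, belonging to 19 genes, and in 19.6% of the 32851 windows of all genes. The 19 genes were *Aldoa*, *Aldoc*, *G6pdx*, *Gapdh*, *Hk1*, *Hk2*, *Hk3*, *Ldha*, *Pdhb*, *Pfkfb2*, *Pfkfb3*, *Pfkm*, *Pgam1*, *Pgk1*, *Pkm*, *Pygm*, *Slc16a1*, *Slc16a3* and *Slc2a1*. Their log2 fold changes lay on both sides of 0. A match is only a description of the letters in the window.

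The glucose transporters were represented by *Slc2a1*, which encodes the ubiquitous GLUT1, and *Slc2a4*, which encodes GLUT4. *Slc2a4*, at chr11:69942286-69948216, had 7351, 4878 and 4601 normalized counts in Cre_neg and 5302, 3678 and 4433 in Cre_pos ventricles, with Cre_neg ventricle 1 the highest and Cre_pos ventricle 2 the lowest. The log2 fold change was -0.33 ± 0.21 (SE, adjusted p = 0.714, edgeR), and -0.09 without Cre_neg ventricle 1. *Slc2a1*, at chr4:119108745-119137330, had 912, 749 and 796 normalized counts against 967, 930 and 799, and the groups overlapped (log2 fold change of 0.13 ± 0.11, SE, adjusted p = 0.740, edgeR). The *Slc2a1* value ran from 0.074 to 0.21 when 1 ventricle at a time was left out. On the TPM scale the same gene did not overlap between groups, at 38.2 to 41.6 TPM in Cre_neg and 42.8 to 51.3 TPM in Cre_pos ventricles. The TPM scale moved the median of all genes by 0.11 on the log2 scale (limma on log2(TPM + 1)), and on it the log2 fold change of *Slc2a1* was 0.24.

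The hexokinases trap glucose in the cell. *Hk1*, taken here as a non-muscle form, was the leading hexokinase, with 67.3 to 73.7% of the family's summed TPM. It lies at chr10:62268855-62379920 and had 7751, 5625 and 5534 normalized counts in Cre_neg and 5450, 4982 and 4946 in Cre_pos ventricles. The groups did not overlap, though the lowest Cre_neg value was close to the highest Cre_pos value. The log2 fold change was -0.30 ± 0.15 (SE, 95% interval -0.64 to 0.05, unadjusted p = 0.0794, adjusted p = 0.714, edgeR) and -0.13 without Cre_neg ventricle 1. *Hk2*, the insulin-regulated form of striated muscle, had 3518, 2339 and 2540 against 2957, 2640 and 2743, with a log2 fold change of -0.0095 ± 0.16 (SE, edgeR) that became 0.18 without Cre_neg ventricle 1. *Hk3*, a form of myeloid cells, was low at 8.01 to 19.9 TPM and had 214, 412 and 353 normalized counts against 293, 440 and 303, so the groups overlapped, and its log2 fold change of 0.08 became -0.15 without Cre_neg ventricle 1. Its lowest value was in Cre_neg ventricle 1, where the summed macrophage markers were lowest but the summed neutrophil markers highest. The part of these cells in the *Hk3* values was not tested.

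**Figure D3:**
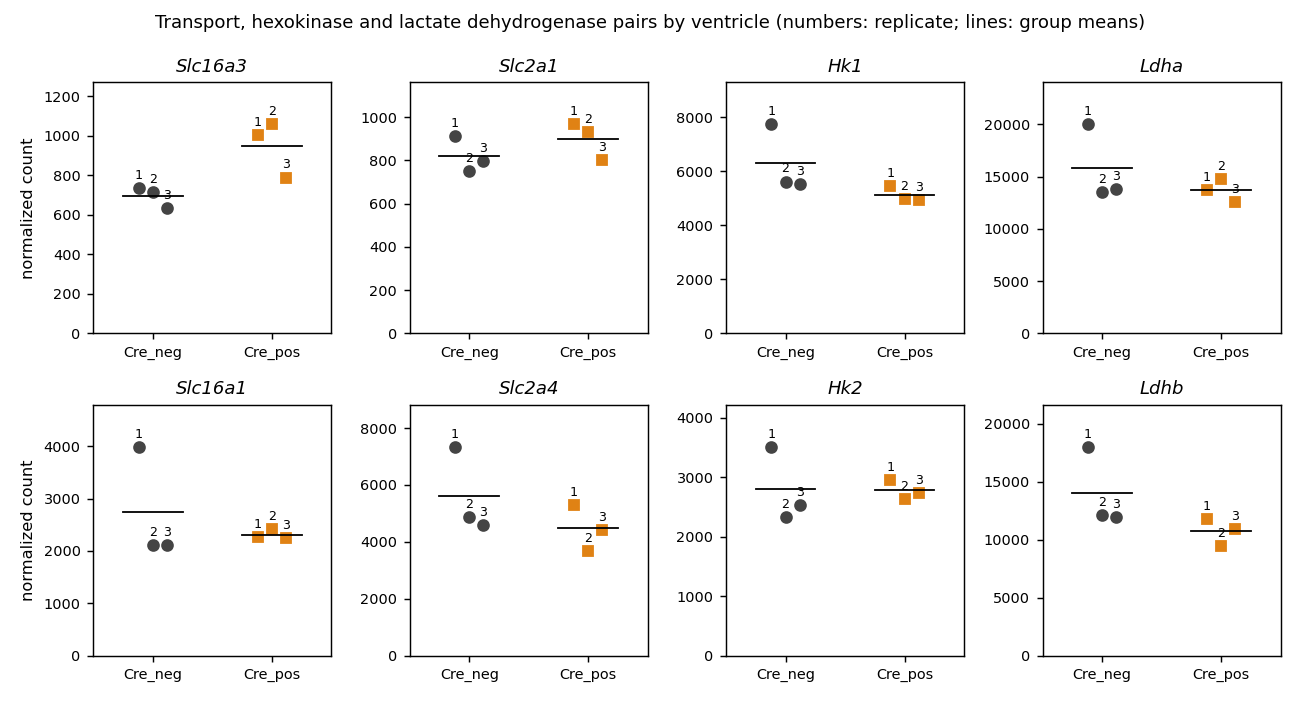
Normalized counts (y axes, from 0) of 8 genes in each ventricle, with numbers marking the replicate and lines the group means, arranged as pairs for lactate transport, glucose transport, hexokinase and lactate dehydrogenase. The Cre_pos points of *Slc16a3* (788 to 1058) lie above the Cre_neg points (633 to 733), the Cre_pos points of *Hk1* and *Ldhb* lie below the Cre_neg points, and Cre_neg ventricle 1 is the highest point for every gene plotted except *Slc16a3* and *Slc2a1*.

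Phosphofructokinase commits the sugar to glycolysis, and its activity is set in part by a fructose bisphosphate made and removed by the PFKFB enzymes. *Pfkm*, the muscle subunit, had 11644, 8730 and 8004 normalized counts in Cre_neg and 8238, 7196 and 7861 in Cre_pos ventricles, and the groups overlapped (log2 fold change of -0.28 ± 0.15, SE, adjusted p = 0.714, edgeR, and -0.11 without Cre_neg ventricle 1). The liver subunit *Pfkl* had 4397, 2923 and 2568 against 2849, 2993 and 2616, and its log2 fold change of -0.22 became 0.03 without Cre_neg ventricle 1. The platelet subunit *Pfkp* had 2878, 2143 and 2540 against 2350, 2741 and 2300 (log2 fold change of -0.03, and 0.07 without that ventricle). The heart form *Pfkfb2* was nearly level, at 797, 674 and 845 against 729, 772 and 835 (0.01 ± 0.11, SE). The inducible *Pfkfb3* had 300, 439 and 377 against 412, 454 and 334, and *Pfkfb4* had 145, 235 and 220 against 210, 200 and 202. For both of these the low ventricle was Cre_neg ventricle 1, and without it their log2 fold changes of 0.10 and 0.03 became -0.03 and -0.16.

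The isomerase just before phosphofructokinase and the enzymes that follow it, as far as phosphoglycerate kinase, were represented mainly by forms shared by most tissues. *Gpi1*, that glucose phosphate isomerase, had 22776, 16674 and 15641 normalized counts in Cre_neg and 17729, 14692 and 14265 in Cre_pos ventricles. *Aldoa*, the aldolase of muscle and most other tissues, had 73269, 48214 and 45284 against 49387, 43309 and 43023. *Tpi1*, the triose phosphate isomerase, had 16403, 10468 and 10130 against 11013, 10048 and 8890. In all 3 genes Cre_neg ventricle 1 was the high value and the remaining 5 ventricles overlapped between groups. *Gapdh* had 150410, 103535 and 93125 against 108540, 91989 and 89312, and *Pgk1*, the phosphoglycerate kinase on the X chromosome, had 8978, 6810 and 6773 against 6927, 7466 and 6055. Log2 fold changes of these 5 genes ran from -0.30 to -0.14 with every 95% interval including 0 (edgeR), and without Cre_neg ventricle 1 they ran from -0.06 to 0.001.

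Phosphoglycerate mutase and enolase each pair a muscle gene with a ubiquitous gene. *Pgam2*, the muscle mutase at chr11:5801637-5803796, had 8910, 5786 and 5297 normalized counts in Cre_neg and 6103, 4697 and 4951 in Cre_pos ventricles, and its partner *Pgam1*, at chr19:41911871-41918665, had 3834, 3422 and 3736 against 4004, 4133 and 3314. The groups overlapped for both genes, with log2 fold changes of -0.34 ± 0.21 and 0.06 ± 0.11 (SE, adjusted p = 0.714 and 0.884, edgeR). *Eno3*, the muscle enolase at chr11:70653125-70662513, had 15797, 11124 and 10526 against 11004, 8861 and 10673, and *Eno1*, the ubiquitous enolase at chr4:150236708-150248879, had 8820, 8823 and 8555 against 9412, 9829 and 8068. Here too the groups overlapped for both genes (log2 fold changes of -0.29 ± 0.18 and 0.06 ± 0.11, SE, adjusted p = 0.714 and 0.876, edgeR). *Eno1* was the steadiest of these 4 genes among the Cre_neg ventricles. Without Cre_neg ventricle 1 the values of *Pgam2* and *Eno3* were -0.08 and -0.09, and those of *Pgam1* and *Eno1* were 0.09 and 0.06. Over the 13 alternatives of the fit, *Pgam1* ran from -0.0025 to 0.17 and *Eno1* from 0.00059 to 0.17. Cre_pos ventricle 1, which held skeletal muscle transcripts, was the highest Cre_pos ventricle by normalized count for *Pgam2*, *Eno3*, *Pfkm*, *Pygm* and *Gys1*. This was also so for *Ldhb*, *Hk1* and several shared forms, among them *Gpi1*, *Aldoa*, *Tpi1*, *Gapdh* and *Pkm*. Among the Cre_pos ventricles, *Pgam1*, *Eno1* and *Ldha* were highest in ventricle 2. The part of the skeletal muscle transcripts in these values was not tested.

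Start windows of both mutases and both enolases are shown because the muscle and ubiquitous genes of these neighbouring steps had log2 fold changes of opposite sign. A further reason is that the study targeted genes whose products act through TEAD factors. Capitals mark CATTCC on either strand (the MCAT element read by TEAD factors), the MEF2 consensus, a site of muscle transcription factors, and ACGTG. The windows are RefSeq sequence on GRCm38.p6, at chr11:5803747-5804046 on the minus strand (Pgam2), chr11:70656926-70657225 on the plus strand (Eno3), chr19:41911621-41911920 on the plus strand (Pgam1) and chr4:150236947-150237246 on the plus strand (Eno1, 1 of its 3 annotated windows).

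Pgam2: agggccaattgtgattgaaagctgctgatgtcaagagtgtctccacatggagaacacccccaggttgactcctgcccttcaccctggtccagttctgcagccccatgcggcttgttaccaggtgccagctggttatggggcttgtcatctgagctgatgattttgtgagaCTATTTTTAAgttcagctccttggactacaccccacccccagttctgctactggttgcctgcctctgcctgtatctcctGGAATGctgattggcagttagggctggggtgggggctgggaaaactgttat

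Eno3: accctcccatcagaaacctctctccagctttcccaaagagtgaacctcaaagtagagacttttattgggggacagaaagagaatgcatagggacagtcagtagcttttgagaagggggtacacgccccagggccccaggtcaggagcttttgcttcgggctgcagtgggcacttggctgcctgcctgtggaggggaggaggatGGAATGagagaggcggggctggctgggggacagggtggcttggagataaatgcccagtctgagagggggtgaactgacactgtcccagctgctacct

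Pgam1: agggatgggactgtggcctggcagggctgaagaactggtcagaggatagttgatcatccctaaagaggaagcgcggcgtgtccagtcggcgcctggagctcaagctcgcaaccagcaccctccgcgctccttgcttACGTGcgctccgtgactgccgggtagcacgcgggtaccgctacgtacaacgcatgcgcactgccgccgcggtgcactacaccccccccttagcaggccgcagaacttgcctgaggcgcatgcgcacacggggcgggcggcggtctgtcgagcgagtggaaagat

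Eno1: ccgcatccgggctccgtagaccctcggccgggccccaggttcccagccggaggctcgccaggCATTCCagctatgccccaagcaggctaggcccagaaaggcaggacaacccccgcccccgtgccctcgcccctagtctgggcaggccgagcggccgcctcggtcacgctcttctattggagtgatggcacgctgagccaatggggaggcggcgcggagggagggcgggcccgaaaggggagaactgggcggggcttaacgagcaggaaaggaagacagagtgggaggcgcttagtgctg

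In *Pgam2* the MEF2 consensus starts at -80 and CATTCC, read on the opposite strand, covers the start site from -1. In *Eno3* CATTCC, also on the opposite strand, starts at -47. *Pgam1* holds neither of these and has ACGTG at -114. The ubiquitous *Eno1* also holds CATTCC, at -188 in the window shown and at -215 in an overlapping window of another annotated start, while its remaining window holds none, so the letters do not divide the muscle from the ubiquitous genes. CATTCC was found on either strand in 6 of the 50 windows (*Aldoa*, *Aldoc*, *Eno1*, *Eno3* and *Pgam2*) and in 14.7% of all windows, and the MEF2 consensus in 1 of 50 (*Pgam2*) and in 3.19% of all windows. The 5 genes with CATTCC had log2 fold changes on both sides of 0.

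At the end of glycolysis, *Pkm*, the pyruvate kinase of muscle and proliferating cells, had 26500, 22076 and 21332 normalized counts in Cre_neg and 23363, 23164 and 20201 in Cre_pos ventricles, with a log2 fold change of -0.07 ± 0.13 (SE, edgeR) that became 0.03 without Cre_neg ventricle 1. *Ldhb*, the heart form of lactate dehydrogenase at chr6:142490249-142507957, had 18048, 12173 and 11944 against 11812, 9425 and 10927. Every Cre_pos ventricle was below every Cre_neg ventricle, by a narrow gap of 11944 to 11812. The log2 fold change was -0.39 ± 0.18 (SE, 95% interval -0.82 to 0.04, unadjusted p = 0.0689, adjusted p = 0.714, edgeR), and -0.17 without Cre_neg ventricle 1. *Ldha*, the form of skeletal muscle and most other tissues, which is a known hypoxia target, had 20022, 13561 and 13801 against 13697, 14803 and 12575, and the groups overlapped (-0.21 ± 0.17, SE). Without Cre_neg ventricle 1 the *Ldha* value was -0.0031.

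Pyruvate dehydrogenase feeds pyruvate to the mitochondria and is switched off by PDK kinases. *Pdha1* had 12672, 9137 and 9364 normalized counts in Cre_neg and 9214, 9052 and 8843 in Cre_pos ventricles, and *Pdhb* had 6905, 4515 and 4771 against 4577, 4190 and 4228. *Pdk1*, a kinase of this group known to respond to hypoxia, had 2604, 1626 and 1577 against 1594, 1621 and 1351. The groups overlapped for all 3 genes, whose log2 fold changes were -0.20 ± 0.14, -0.32 ± 0.17 and -0.35 ± 0.20 (SE, adjusted p = 0.722, 0.714 and 0.714, edgeR). These were -0.04, -0.10 and -0.08 without Cre_neg ventricle 1.

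For glycogen, *Pygm*, the muscle phosphorylase that releases glucose units, had 21133, 15730 and 13736 normalized counts in Cre_neg and 15640, 12166 and 13725 in Cre_pos ventricles (log2 fold change of -0.28 ± 0.18, SE, adjusted p = 0.714, edgeR). *Gys1*, the muscle glycogen synthase, had 5027, 2746 and 2469 against 3020, 2392 and 2563 (-0.36 ± 0.26, SE, adjusted p = 0.722, edgeR). Both groups overlapped in both genes, and without Cre_neg ventricle 1 the values were -0.09 for *Pygm* and 0.02 for *Gys1*. *Gys1* spanned 1.82-fold between its lowest and highest TPM over the 6 ventricles.

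Of the 15 shared forms, the 3 with estimates above 0 were pentose phosphate genes, and all 3 were lowest in Cre_neg ventricle 1. *G6pdx*, the entry dehydrogenase, had 592, 771 and 804 normalized counts in Cre_neg and 824, 764 and 813 in Cre_pos ventricles. *Tkt*, the transketolase, had 1154, 1665 and 1597 against 1627, 1586 and 1676. *Pgd*, the second dehydrogenase, had 1609, 1748 and 1866 against 1864, 1922 and 1867. In these 3 genes the groups overlapped and the lowest value was that of Cre_neg ventricle 1. On the TPM scale *G6pdx* did not overlap, at 26.6 to 40.3 TPM in Cre_neg and 41.4 to 42.8 TPM in Cre_pos ventricles. *Taldo1*, the transaldolase, had 1842, 1939 and 1677 against 1822, 1737 and 1581. The log2 fold changes were 0.15 ± 0.12, 0.15 ± 0.14, 0.11 ± 0.09 and -0.09 ± 0.10 (SE, edgeR). Without Cre_neg ventricle 1 those of *G6pdx*, *Tkt* and *Pgd* were 0.02, -0.0049 and 0.06, and that of *Taldo1* was -0.08. Over the 13 alternatives of the fit *Taldo1* ran from -0.14 to 0.034. The summed level of the 4 genes was 352 TPM in Cre_neg ventricle 1 and 427 to 467 TPM in the other 5. *Pgls*, the lactonase between *G6pdx* and *Pgd* in the pathway and a gene of the further list, had 1764, 1457 and 1384 normalized counts against 1317, 1173 and 1215, lower in every Cre_pos ventricle (log2 fold change of -0.31 ± 0.11, SE, unadjusted p = 0.0252, adjusted p = 0.714, edgeR, and -0.21 without Cre_neg ventricle 1). The summed level of 8 fibroblast markers was likewise lowest in Cre_neg ventricle 1 (4953 TPM, against 7571 to 8909 TPM elsewhere), as was that of the macrophage markers. By normalized count *Col1a1*, *Col1a2*, *Col3a1*, *Lum*, *Tcf21* and *Postn* were each lowest there. *Dcn* was highest there (13379, against 8930 to 12258 elsewhere), and *Pdgfra* (1260) was lower in Cre_neg ventricle 2 (1062). The part of these markers in the pentose phosphate values was not tested.

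**Figure D4:**
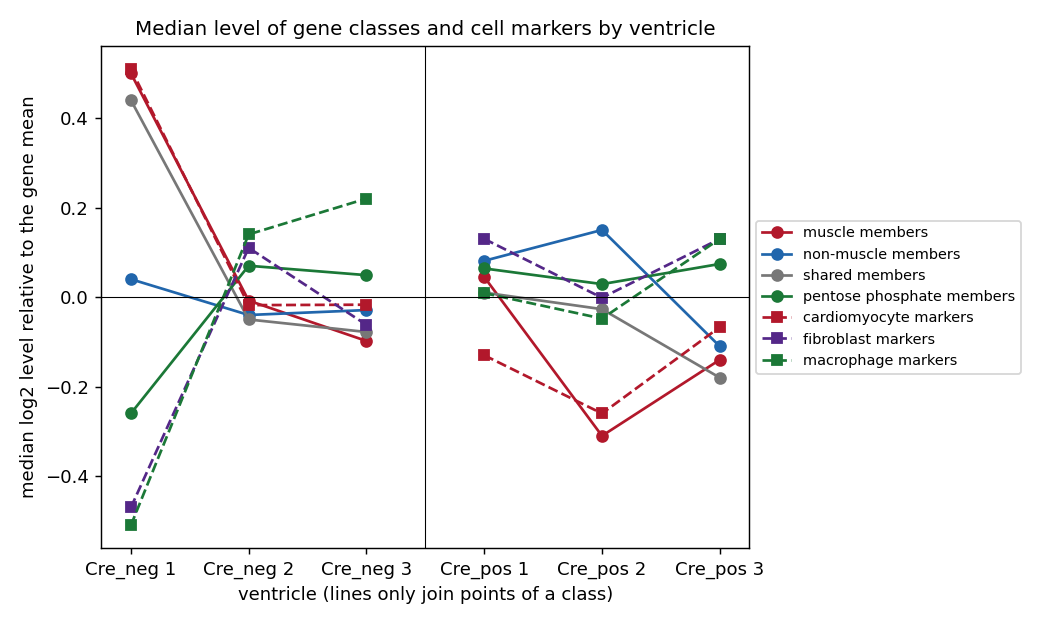
Median log2 level relative to each gene's mean over the 6 ventricles (y axis), for the 9 muscle, 11 non-muscle, 15 shared and 4 pentose phosphate members, the last also counted among the shared (circles, solid lines), and for markers of cardiomyocytes, fibroblasts and macrophages (squares, dashed lines). In Cre_neg ventricle 1 the muscle members (0.50) and cardiomyocyte markers (0.51) are high while the pentose phosphate members (-0.26), fibroblast markers (-0.47) and macrophage markers (-0.51) are low.

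The mix of isozymes was then compared as the share of a family's summed TPM that came from 1 of its forms, a measure that is not changed by scaling of the library. Across 9 families, 3 ventricles against 3 cannot give an exact permutation p under 0.1, and after adjustment over the 9 families the smallest value was 0.225, so no family passed. In 7 families that form was the muscle or heart form, and for the aldolases and the lactate transporters it was *Aldoa* and *Slc16a1*, which are classed here as shared forms. The mean share of the muscle or heart form was lower in Cre_pos in 6 of those 7 families and higher for the hexokinases, and the mean shares of *Aldoa* and *Slc16a1* were lower. *Slc2a4* made up 88.7, 86.2 and 84.8% of the glucose transporter TPM in Cre_neg and 83.9, 79.1 and 84.5% in Cre_pos ventricles, without overlap. The difference was -4.04 percentage points (exact two-sided permutation p = 0.1), and it was -2.98 without Cre_neg ventricle 1 and -2.33 without Cre_pos ventricle 2. *Slc16a1* made up 74.6, 61.3 and 64.3% of the lactate transporter TPM against 54.7, 54.9 and 60.6%, also without overlap, a difference of -10.0 points (exact p = 0.1). Without Cre_neg ventricle 1 it was -6.07 points and without both ventricles numbered 1 -5.05 points.

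*Hk2* differed in the other direction, with 23.8, 21.3 and 23.5% of the hexokinase TPM in Cre_neg and 26.5, 25.4 and 26.9% in Cre_pos ventricles. These groups did not overlap either, and the difference of 3.42 points (exact two-sided permutation p = 0.1) was 3.88 points without Cre_neg ventricle 1. *Hk1* had mean shares of 72.3% in Cre_neg and 68.1% in Cre_pos, and *Hk3* of 4.88% and 5.65%. In the aldolases the share of *Aldoc* was at most 0.0288%, and the change in the *Aldoa* share of -0.0137 points (exact p = 0.1), although without overlap, rests on the low counts of *Aldoc* given above.

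In the other families the groups overlapped. *Pgam2* held 83.2, 78.3 and 75.2% of the mutase TPM in Cre_neg and 76.5, 70.9 and 76.2% in Cre_pos ventricles (difference of -4.38 points, exact permutation p = 0.3). *Eno3* held 68.0, 59.9 and 59.3% of the enolase TPM against 58.2, 51.7 and 61.2% (-5.38 points, exact p = 0.4). Leaving out Cre_neg ventricle 1 brought these to -2.23 and -2.59 points, and leaving out Cre_pos ventricle 2 to -2.55 and -2.73 points. *Ldhb* held 53.3, 53.3 and 52.3% against 52.2, 44.7 and 52.5%, and its difference of -3.19 points (exact p = 0.2) became -0.632 points without Cre_pos ventricle 2, the only ventricle far from the rest. *Pfkm* held 59.5 to 66.1% of the phosphofructokinase TPM (-2.05 points, exact p = 0.5, and -0.31 points without Cre_pos ventricle 2), and *Pfkfb2* held 39.9 to 54.8% of the PFKFB TPM (-2.01 points, exact p = 0.7). The *Pfkfb2* difference ran from -6.10 points without Cre_neg ventricle 2 to 1.37 points without Cre_neg ventricle 1.

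**Figure D5:**
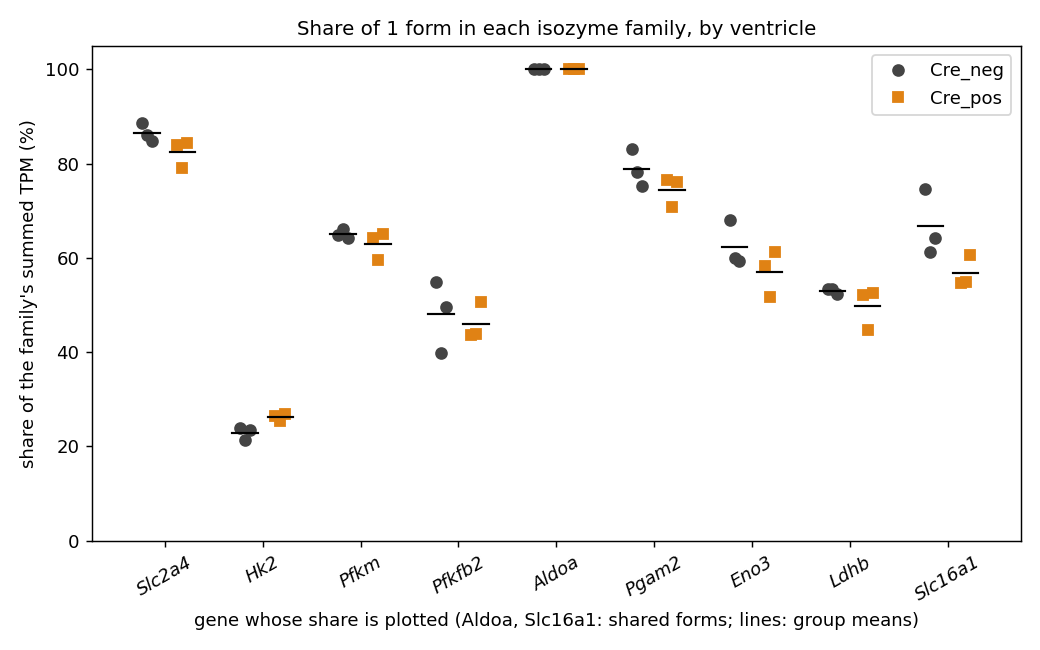
Share of each isozyme family's summed TPM (y axis, percent, from 0) held by its muscle or heart form (for the aldolases and lactate transporters, by the shared forms *Aldoa* and *Slc16a1*) in each ventricle, with Cre_neg as circles, Cre_pos as squares and group means as lines. The Cre_pos squares lie below the Cre_neg circles for *Slc2a4* and *Slc16a1* and above them for *Hk2*, while the aldolase points all sit at the top of the axis.

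A further list of 42 genes of the same pathways gave 38 that were tested, of which 0 were called (edgeR quasi-likelihood test). At an unadjusted p under 0.05, 2 of the 38 passed, beside 5.83% of all genes tested. Leaving out Cre_neg ventricle 1, 2 or 3 gave counts of 4, 4 and 8 in the list, when 922, 902 and 1346 genes passed in all. Leaving out Cre_pos ventricle 1, 2 or 3 gave 1, 1 and 0, when 556 of 13978, 375 of 13979 and 513 of 13946 passed. Without both ventricles numbered 1 it was 9 of 38, when 1035 of 13894 passed. Their log2 fold changes were above 0 for 10 and below 0 for 28, with a median of -0.18, which became -0.02 without Cre_neg ventricle 1 (18 above 0 and 20 below). Every Cre_pos ventricle lay above every Cre_neg ventricle for 2 of the 38 (*Gpd2* and *Hif1a*) and below for 2 (*Fbp2* and *Pgls*), 5.26% each, beside 7.55% and 6.85% of all genes. The largest estimates belonged to *Eno2* (neuronal enolase, 0.37), *Gpd2* (mitochondrial glycerol phosphate dehydrogenase, 0.26) and *Hif1a* (hypoxia-inducible factor, 0.24). *Hif1a* had 2377, 2397 and 2510 normalized counts in Cre_neg and 2661, 3248 and 2680 in Cre_pos ventricles, which did not overlap (unadjusted p = 0.0551, adjusted p = 0.714, edgeR), and *Gpd2* had 260, 232 and 198 against 268, 276 and 278. The smallest estimates belonged to *Fbp2* (muscle fructose bisphosphatase, -1.06), *Gpd1* (cytosolic glycerol phosphate dehydrogenase, -0.66) and *Phka1* (a phosphorylase kinase subunit of muscle, -0.62). *Fbp2* had 337, 153 and 120 against 91.6, 101 and 99.6, with no overlap (unadjusted p = 0.021, adjusted p = 0.714, edgeR). Without Cre_neg ventricle 1 the log2 fold changes of *Fbp2*, *Gpd1* and *Phka1* were -0.49, -0.11 and 0.03, and those of *Eno2*, *Gpd2* and *Hif1a* were 0.43, 0.35 and 0.22.

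For some of the genes the estimated counts were fractional, as arises when the estimation splits a read over several candidates. The counts were not whole numbers (tolerance 1e-06) in 5 or 6 of the ventricles for *Gpi1*, *Pfkp*, *Gapdh*, *Pdha1* and *Gys1*, and in 1 ventricle for *Eno1*, and their values are uncertain to that extent. A copy of *Gapdh*, *Gapdh-ps15*, was listed at 0.55 to 2.68 TPM with fractional counts in all 6 ventricles. The other 29 genes had whole counts in all 6 ventricles.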

How the data were processed

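Bulk RNAseq of 3 Cre_pos and 3 Cre_neg left ventricles was analysed, grouped by the Cre label of each sample. The authors deposited an estimated count, an FPKM and a TPM value per gene and ventricle. The submitters' processing notes name Bowtie2 2.2.5, RSEM 1.2.12 and GRCm38.p6. The estimated counts were deposited without normalization, and fractions remained in 11.5% of the values, where reads had been divided. The deposited TPM values sum to 1000000 per ventricle and were used for levels between genes and for isozyme shares, and the deposited FPKM values were not used further. A deposited comparison made by the authors with DESeq2 (fold changes and p-values) was not used. Depth was 13177888 to 14827579 counts per ventricle.

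Counts were rounded, and edgeR 4.0.16 in R 4.3.3 was used for testing (filterByExpr with a minimum count of 10 and total of 15, TMM, quasi-likelihood test without covariates, Benjamini-Hochberg over 13817 genes, threshold 0.05). Normalized counts are TMM-scaled to the mean library size. Standard errors were derived from the test statistic. Isozyme shares were tested with scipy 1.17.1 by exact permutation, two-sided. The edgeR fit alone was run on simulated data, with changes larger than any estimate among the 35 genes, and the other steps were not. Alternatives were DESeq2 1.42.0, limma 3.58.1 on log2(TPM + 1), DESeq2 size factors, upper quartile scaling, no filter, a replicate block and leaving out ventricles. Figures were drawn with matplotlib 3.10.9 in Python 3.11.15. Promoter windows and gene positions came from RefSeq tables on GRCm38.p6. The 35 genes and the gene lists were chosen with earlier results of these data known. All 35 genes are named, and of the further pathway list *Pgls* and the genes with the 3 largest and 3 smallest log2 fold changes. *Pklr* of that list was not found.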

Additional observations from a re-analysis of the deposited data

How the results depend on the processing

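Of the 35 genes, 20 kept the sign of their log2 fold change in all 13 alternatives and 15 did not, and 0 of the 35 were called in any of them. At an unadjusted p under 0.05, limma on TPM passed 3 of the 35, beside 999 of all 13817, and the DESeq2 Wald test 2, beside 813. *Slc16a3* ran from 0.37 to 0.57, with adjusted p from 0.509 to 0.958. The number of genes called among all tested was 5 with the DESeq2 Wald test, 2 with limma on log2(TPM + 1), 0 with the replicate block and 0 to 2 when 1 ventricle was left out. The sign turned for *Hk2* with upper quartile scaling (0.0037), limma on TPM (0.12) and the replicate block (0.011). With limma on TPM it also turned for *Pfkp* (0.056), *Pkm* (0.047) and *Taldo1* (0.034), a setting in which the median of all genes was 0.11. With limma on TPM the median of the non-muscle forms was 0.17. With both ventricles numbered 1 left out, the sign turned for *Hk2* (0.14), *Hk3* (-0.047), *Pfkl* (0.027), *Pfkp* (0.10), *Pfkfb3* (-0.054), *Pfkfb4* (-0.18), *Slc16a1* (0.13), *G6pdx* (-0.0024), *Tkt* (-0.0040), the pentose phosphate median (-0.00319) and the *Pfkfb2* share (2.52 points). The cause was not tested. When 1 ventricle at a time was left out, values ran from -0.12 to 0.18 for *Hk2*, -0.15 to 0.28 for *Hk3*, -0.38 to 0.034 for *Pfkl*, -0.14 to 0.069 for *Pfkp*, -0.077 to 0.083 for *Pfkfb2*, -0.033 to 0.24 for *Pfkfb3*, -0.16 to 0.16 for *Pfkfb4*, -0.21 to 0.001 for *Pgk1*, -0.0025 to 0.15 for *Pgam1*, -0.13 to 0.031 for *Pkm*, -0.41 to 0.12 for *Slc16a1*, -0.55 to 0.024 for *Gys1*, -0.0049 to 0.24 for *Tkt* and -6.10 to 1.37 points for the *Pfkfb2* share. The labels number the ventricles 1 to 3 in both groups. Same-numbered ventricles deviated together with correlations of 0.354, 0.0726 and -0.0318, so the numbers were not taken as pairs, and the replicate block called 0 genes, with 5 of the 35 genes and 9 of the 38 further pathway genes at an unadjusted p under 0.05, beside 1217 of all 13817. Counts of 3 against 3 ventricles, with Cre_neg ventricle 1 apart from the rest, limit what the comparison of genotypes can show.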
